A study of Homo sapiens with 2 samples.

Results

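The tumour necrosis factor (TNF) superfamily and its receptors were examined in KG1, an established line from a human acute myeloid leukaemia, after silencing of T-bet or transfection of a control siRNA. Members were the genes whose platform symbol begins with TNFSF or TNFRSF, plus TNF, LTA, LTB, LTBR, FAS, FASLG, CD27, CD40, CD70 and NGFR. The array annotation gave 43 such genes, of 19775 genes in all, at least 1 probe set of their own, and 1 further gene that the rule names was not analysed here. Together these genes were read by 88 of the 54675 probe sets. Another 8 probe sets carry a member's symbol together with the symbol of another gene and were assigned to none. That leaves TNFSF12 and TNFRSF6B without a value of their own.

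Both groups were KG1 cells electroporated with 1.98 µg of siRNA, named siRNA-Tbet or siRNAc, rested for 5 h and then given interleukin-18 at 10 ng/ml for 12 h. Each group holds 1 Affymetrix 3' expression array, so none of the differences has a replicate error, no p-value is given, and the number of arrays limits the precision. Neither array came from unstimulated cells, so the response to interleukin-18 itself cannot be read. In a bulk sample of this kind, fewer cells expressing a gene and less of its RNA per cell cannot be told apart.

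Ligands of the TNF superfamily are trimeric proteins, most of them made on the cell surface and some released by proteases, which cluster their receptors on the target cell. Receptors with a cytoplasmic death domain can assemble a caspase-8 complex and kill the cell, while the others bind TRAF adaptors and switch on NF-κB and MAP kinases. Decoy receptors bind a ligand without a full signalling tail. In the myeloid and lymphoid lineages these genes govern inflammation, costimulation of T and B cells, and cell death. T-bet, the T-box factor encoded by TBX21, drives the type 1 programme of lymphocytes, and interleukin-18 signals through MyD88 to NF-κB.

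TBX21, the target of the siRNA, read 1839 after silencing and 3581 in the control, a 1.95-fold lower level, lower than any other gene in its decile of signal. Of the 6 progenitor and myeloid markers with a probe set of their own (CD34, PTPRC, SPI1, CD38, HLA-DRA and GATA2), 6 lay above the floor on both arrays, where the floor is the median signal of 146. CD34, the progenitor antigen, had signals of 17130 and 15839, and GATA2, a progenitor transcription factor, had 15712 and 11483, 1.37-fold higher with siRNA-Tbet. CD14 of monocytes (4.54 and 6.34) and EPCAM and KRT19 of epithelium were below it on both arrays. Of the 4 T lymphocyte markers, CD3D and CD3E were above the floor on both arrays, CD4 on the control array alone (29.1 against 337, at least 2.30-fold lower), and CD8A on neither. Summed, they came to 16363 after silencing and 14350 in the control, nearly all of it from CD3D. Of 2 B lymphocyte markers, CD79A was above the floor on both arrays at 528 and 530, and MS4A1 on the control array alone (88.3 against 183). The part of these markers in the results was not tested.

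No TNF superfamily gene above the floor on both arrays differed by 1.5-fold or more on its chosen probe set. A gene counted as measured where its chosen probe set lay above the floor on at least 1 array, and signals below the floor were raised to it. Of the 43 members, 32 were measured and 29 of these were above the floor on both arrays. None of the 32 was at least 1.5-fold higher with siRNA-Tbet, where 1.96% of all 12126 measured genes were, and none was at least 1.5-fold lower, where 2.88% were. Those shares correspond to less than 1 gene in a list of this length. For CD27, FASLG and TNFRSF11A, which reached the floor on 1 array, the fold is a lower bound and a larger difference cannot be seen. At a lower threshold, 3 members were at least 25% higher (TNFRSF10A-DT, TNFRSF8 and TNFRSF9; 7.68% of measured genes) and 3 were at least 20% lower (LTA, CD40 and TNFRSF10B; 10.9% of measured genes).

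Directions were mixed. By any amount, 19 members were lower with siRNA-Tbet and 13 were higher, against 53.6% and 46.4% of all measured genes. The median log2 ratio of siRNA-Tbet over siRNAc was -0.08 over the members and -0.02 over all measured genes. With the second brightest probe set it was 0.16, over the 14 members that have one. Leaving out the antisense and divergent transcripts, whose symbols also begin with TNFRSF, gave 18 lower and 12 higher of 30, with the same median. The signs of TNFSF13B and TNFRSF10D, both within 0.02 of 0 on the log2 scale, changed when the arrays were scaled in other ways. In either direction, the median size of the log2 ratio was 0.20 over the members, larger than the 0.14 over all measured genes. Among genes above the floor on both arrays it was 0.20 over the members and 0.13 over all genes. The cause of this larger size was not tested.

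**Figure D1:**
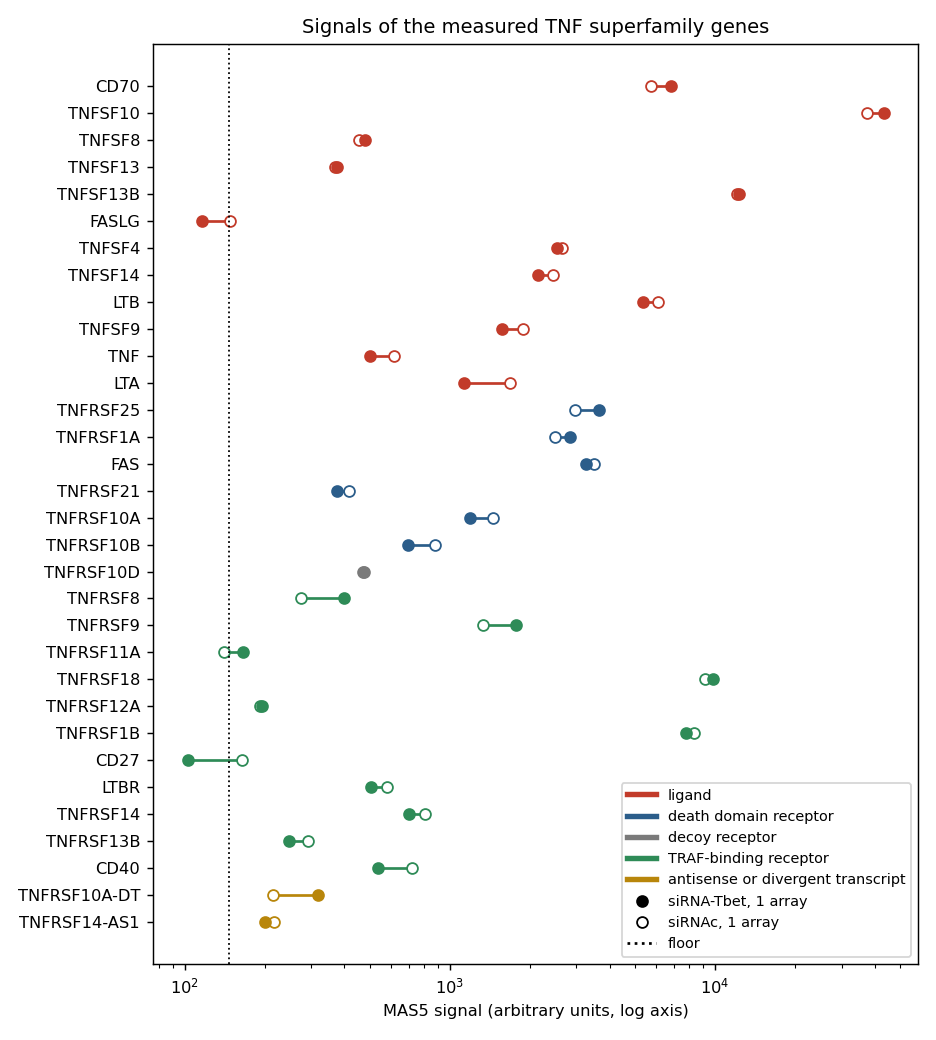
Signals of the 32 measured members on a log axis in arbitrary MAS5 units, with filled points for siRNA-Tbet and open points for siRNAc, grouped by role; each point is 1 array and has no error bar. The paired points lie close together for most members, and LTA, CD40, TNFRSF8, TNFRSF9 and TNFRSF10A-DT show the widest gaps among genes above the dotted floor of 146 on both arrays.

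The only error that 2 single arrays offer is the disagreement between probe sets of 1 gene, which covers only part of the technical noise. It leaves out noise shared by the probe sets of an array and variation between cultures. It had an SD of 0.40 on the log2 scale at a median signal of 221 and of 0.12 at 11337. Of the 32 measured members, 7 were lower by more than this SD at their signal (17.0% of measured genes) and 7 were higher by more (12.8% of measured genes). The lower ones were LTA, CD40, TNFRSF10B, TNFRSF10A, TNFSF9, LTB and TNFSF14. The higher ones were TNFRSF10A-DT, TNFRSF8, TNFRSF9, TNFRSF25, CD70, TNFSF10 and TNFRSF1A.

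**Figure D2:**
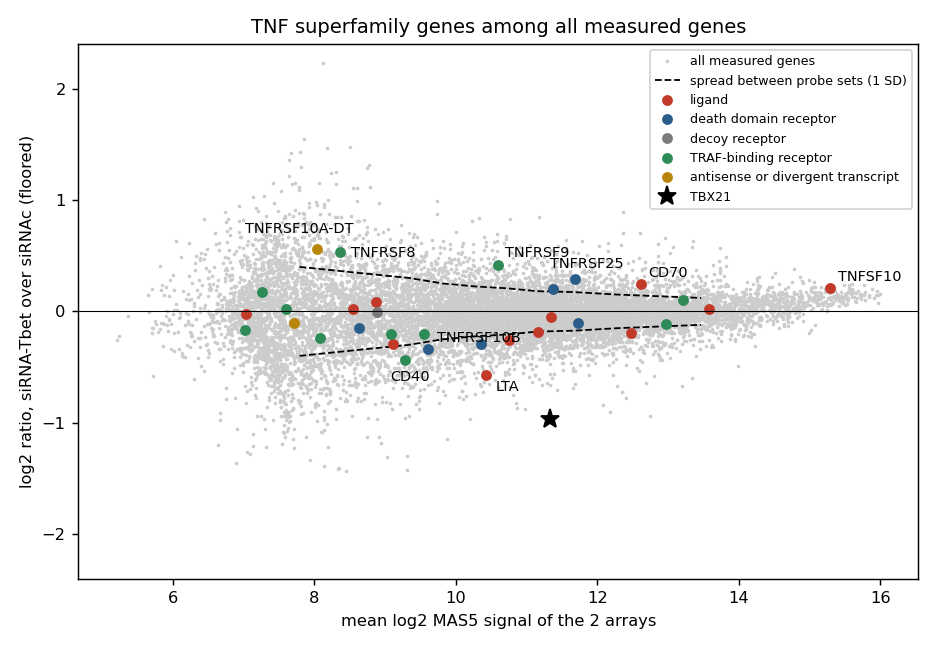
Log2 ratio of siRNA-Tbet over siRNAc against the mean log2 signal for all 12126 measured genes (grey) and the members coloured by role, 1 point per gene, with the spread between probe sets of a gene as dashed lines and TBX21 as a star. Members lie within the cloud of other genes on both sides of 0; LTA at -0.57 is the lowest member and TNFRSF10A-DT at 0.56 the highest.

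Among the ligands, LTA stood lowest. LTA encodes lymphotoxin-α, a secreted cytokine that shares the receptors of TNF. Its single probe set, 206975_at, read 1130 after silencing and 1681 in the control, a 1.49-fold lower level and a log2 ratio of -0.57. The probe-set SD at that signal was 0.22, and 1.8% of the 1212 genes in its decile of signal had a lower ratio. TNF, the inflammatory cytokine that names the family, had signals of 502 and 614, or 18.3% lower, which is within the SD of 0.31. LTB, which anchors lymphotoxin-α to the membrane, had signals of 5325 and 6090 on its main probe set, a log2 ratio of -0.19. A second LTB probe set read 385 and 258, a log2 ratio of 0.58, so the direction of LTB depends on the probe set.

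LTA, TNF and LTB are consecutive protein-coding genes on chromosome 6 in the RefSeq annotation. Their chosen probe sets gave log2 ratios of -0.57, -0.29 and -0.19. The promoters of these genes are shown because the siRNA targets a DNA-binding factor. That of TNFRSF9, a receptor with a higher signal, is set beside them. TNFRSF8 (0.53) and TNFRSF10A-DT (0.56) had higher ratios than TNFRSF9 (0.42), and no window of theirs is shown. The sequences are the 250 bases before the RefSeq start site in GRCh38.p14. They lie at chr6:31571849-31572098 (plus strand) for LTA, chr6:31575315-31575564 (plus) for TNF, chr6:31582426-31582675 (minus) for LTB and chr1:7940840-7941089 (minus) for TNFRSF9. Capitals mark the T-box core TCACAC and the NF-κB pattern of GGG and TTTCC with any 2 bases between, each searched on both strands, and no match overlaps another.
LTA: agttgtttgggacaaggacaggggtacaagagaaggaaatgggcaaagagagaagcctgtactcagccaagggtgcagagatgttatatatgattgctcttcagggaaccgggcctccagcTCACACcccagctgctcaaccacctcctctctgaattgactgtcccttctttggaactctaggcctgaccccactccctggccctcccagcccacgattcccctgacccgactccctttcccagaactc
TNF: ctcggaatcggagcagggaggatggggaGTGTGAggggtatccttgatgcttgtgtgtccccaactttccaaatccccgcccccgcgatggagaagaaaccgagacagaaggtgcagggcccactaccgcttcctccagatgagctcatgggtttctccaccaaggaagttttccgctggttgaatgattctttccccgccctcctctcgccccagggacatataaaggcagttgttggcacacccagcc
LTB: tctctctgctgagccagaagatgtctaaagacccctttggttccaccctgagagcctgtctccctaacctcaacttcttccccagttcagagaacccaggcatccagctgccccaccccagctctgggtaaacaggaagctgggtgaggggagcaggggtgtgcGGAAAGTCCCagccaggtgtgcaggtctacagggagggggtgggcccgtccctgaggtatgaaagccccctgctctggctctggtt
TNFRSF9: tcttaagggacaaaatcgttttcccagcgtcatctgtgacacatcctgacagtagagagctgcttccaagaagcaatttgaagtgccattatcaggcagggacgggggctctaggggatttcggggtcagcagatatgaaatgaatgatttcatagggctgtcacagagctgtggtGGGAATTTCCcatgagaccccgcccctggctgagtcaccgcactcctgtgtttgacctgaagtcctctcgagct
The T-box core lay 129 to 124 bases before the start in LTA and, on the opposite strand, 222 to 217 bases before it in TNF. LTB and TNFRSF9 each held an NF-κB pattern, at 86 to 77 and 74 to 65 bases before the start. Over all 35116 RefSeq promoter windows of this length, 9.9% held the T-box core and 1.73% the NF-κB pattern. Of the 32 measured members, 24 had 31 windows in the table. The T-box core occurred in 7 of these windows, from CD27, LTA, TNF, TNFRSF14, TNFRSF18 and TNFSF14, and the NF-κB pattern in 3, from LTB and TNFRSF9. A second RefSeq start of LTA, whose window overlaps the first, held neither. Windows of 1 gene overlap, so these counts are a description. Among the genes with the T-box core, log2 ratios ran from -0.57 for LTA to 0.10 for TNFRSF18. The part of either motif in the differences was not tested.

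TNFSF9, CD70 and TNFSF14 are also consecutive protein-coding genes, on chromosome 19, and did not share a direction. TNFSF9, the 4-1BB ligand that costimulates T cells, had signals of 1578 and 1881, or 16.1% lower. CD70, the ligand of CD27, had signals of 6821 and 5749, or 18.6% higher, with a log2 ratio of 0.25 against an SD of 0.14. TNFSF14, the cytokine LIGHT, had signals of 2150 and 2444, a log2 ratio of -0.18, and its second probe set gave 0.03.

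TNFSF10, which encodes the death ligand TRAIL and is an interferon-induced gene in many cells, had a higher signal with siRNA-Tbet on its brighter probe sets. The values were 43208 and 37445 on the chosen probe set (log2 ratio 0.21) and 33110 and 27921 on the second (0.25). The last probe set, of the kind that can cross-hybridise, read 25563 and 25596. Signals this high can be compressed, and the ratio of 0.21 was 0.08 after quantile normalization. Its chosen probe set kept a ratio above 0 under all 3 scaling alternatives.

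The remaining measured ligands differed little. TNFSF13B, the B cell survival factor BAFF, had signals of 12263 and 12093, and its second probe set read 11411 and 11703. TNFSF13, the related factor APRIL, had 376 and 370 on its own probe set, which can cross-hybridise. TNFSF4, the OX40 ligand, had 2543 and 2636. TNFSF8, the CD30 ligand, had 480 and 454, and a second probe set gave the opposite sign at -0.11. These differences lie within the probe-set SD. FASLG, the ligand of FAS, reached the floor only on the siRNAc array (116 and 149). Over the 12 measured ligands, 7 were lower and 5 higher, with a median log2 ratio of -0.04.

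Death domain receptors split by direction. TNFRSF10A, TRAIL receptor 1, was lower on all 3 of its probe sets, with signals of 1187 against 1456, 838 against 988 and 657 against 688 (siRNA-Tbet against siRNAc). Their log2 ratios were -0.29, -0.24 and -0.07. TNFRSF10B, TRAIL receptor 2, had 692 against 875 on its chosen probe set, a log2 ratio of -0.34. Its other probe sets, at signals between 149 and 219, gave 0.32, 0.03 and -0.16, so they did not settle a direction. FAS, the receptor of FASLG, had 3264 against 3502, a ratio of -0.10. Of the other FAS probe sets, 3 lay between -0.08 and 0.04, and the faintest was at least 1.60-fold lower (122 against 235).

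TNFRSF25, the T cell death receptor DR3, and TNFRSF1A, the main TNF receptor, were higher with siRNA-Tbet. TNFRSF25 had 3644 against 2972 on its chosen probe set, a log2 ratio of 0.29 with an SD of 0.17. Its 3 cross-hybridising probe sets gave 0.18 to 0.24, and the faintest, at 723 against 732, gave -0.02. TNFRSF1A had 2844 against 2481, or 14.6% higher, on its only probe set. TNFRSF21, death receptor 6, disagreed between probe sets, with 375 against 415 on one and 229 against 148 (1.55-fold higher) on the other, which can cross-hybridise. The 6 measured death domain receptors had a median log2 ratio of -0.12, with 4 lower and 2 higher.

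Of the decoy receptors, only TNFRSF10D counted as measured. TNFRSF10D, a decoy of TRAIL with a truncated death domain, had 470 against 473. TNFRSF10C, the other membrane decoy of TRAIL, was below the floor on its chosen probe set, and the only probe set of the 4 to exceed the floor did so on the siRNAc array alone (22.2 against 160). TNFRSF11B, osteoprotegerin, was below the floor on both arrays.

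CD40 had the lowest ratio among the TRAF-binding receptors. CD40 licenses antigen-presenting cells and B cells. It read 534 after silencing and 721 in the control, 1.35-fold lower, with a log2 ratio of -0.43 against an SD of 0.30. Of the 4 CD40 probe sets, 3 were below the floor on both arrays, so no second reading exists. TNFRSF13B, the BAFF and APRIL receptor TACI, had 248 and 293. TNFRSF14, the LIGHT receptor HVEM, had 699 and 806, and LTBR, the lymphotoxin-β receptor, had 504 and 579. All 3 differences were within the probe-set SD. TNFRSF1B, the second TNF receptor, had 7744 and 8357, or 7.3% lower.

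TNFRSF9 and TNFRSF8 lay on the other side. TNFRSF9, the costimulatory receptor 4-1BB, read 1782 after silencing and 1331 in the control, 1.34-fold higher. Its log2 ratio of 0.42 compares with an SD of 0.21, and 97.9% of the 1213 genes in its decile had a lower ratio. A second TNFRSF9 probe set gave 371 and 343, a log2 ratio of 0.12, and the remaining one was below the floor. TNFRSF8, the activation antigen CD30, had 397 and 274 on its only probe set, 1.45-fold higher, with a log2 ratio of 0.53 against an SD of 0.36.

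Other TRAF-binding receptors gave no clear difference. TNFRSF18, the receptor GITR, had 9799 and 9153 on one probe set and 7827 and 8204 on the other, with log2 ratios of 0.10 and -0.07. TNFRSF12A, the TWEAK receptor, had 196 and 193. TNFRSF11A, the receptor RANK, reached the floor only with siRNA-Tbet on both of its probe sets, at 165 against 141 and 182 against 54.8. CD27 reached it only with siRNAc, at 103 against 165. TNFRSF4, the receptor OX40, had 5239 and 4936 on a probe set that can cross-hybridise and was below the floor on the other, so it does not count among the measured genes. Over the 11 measured TRAF-binding receptors, 6 were lower and 5 higher.

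Of the 3 antisense or divergent transcripts, TNFRSF10A-DT, which starts beside TNFRSF10A, had 318 against 215, 1.48-fold higher, at a signal where the SD was 0.38. TNFRSF10A itself was lower, as given above. TNFRSF14-AS1 disagreed between its measured probe sets. One read 202 against 217, and the other, which can cross-hybridise, read 302 against 105, at least 2.06-fold higher. TNFRSF10B-AS1 was below the floor.

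**Figure D3:**
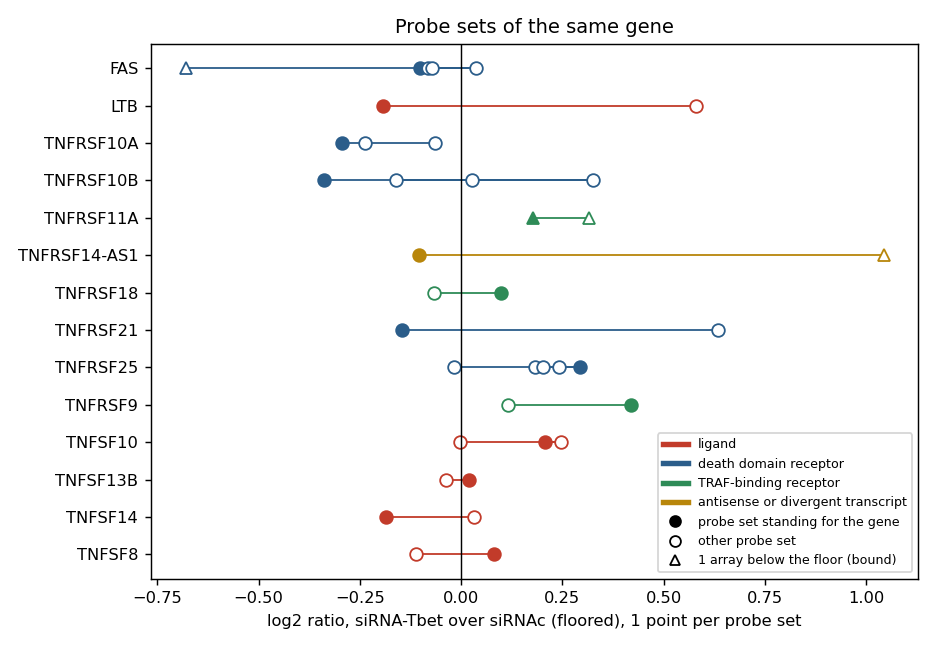
Log2 ratios (siRNA-Tbet over siRNAc) of every measured probe set for the 14 members with 2 or more; filled points stand for the gene, open points are its other probe sets, and triangles have 1 array below the floor and are bounds. Probe sets of 11 of the 14 genes fall on both sides of 0, with the widest range in TNFRSF14-AS1.

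Agreement between probe sets was limited. Of the 14 members with 2 or more measured probe sets, 1 was lower on all (TNFRSF10A), 2 were higher on all (TNFRSF9 and TNFRSF11A) and 11 had probe sets on both sides of 0. Over all 6140 genes with 2 or more measured probe sets, 22.0% were lower on all and 19.4% higher on all. At the level of single probe sets, 58 of the members' 88 were measured. Of these, 2 were at least 1.5-fold higher (2.87% of measured probe sets), those of TNFRSF14-AS1 and TNFRSF21 given above. Only the FAS probe set was at least 1.5-fold lower (3.23% of measured probe sets). The fold of TNFRSF14-AS1 and of FAS rests on 1 array at the floor. The probe set of TNFRSF21 can cross-hybridise, and its siRNAc signal of 148 lay barely above the floor of 146. Of the 8 probe sets shared with another gene, 4 were measured, and all 4 were lower, by 1.09-fold to 1.34-fold. Of all measured genes, 53.6% were lower by any amount, and a count of 4 is too small to set against that share.

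For 31 textbook pairs of ligand and receptor, both partners were above the floor on both arrays in 15, on at least 1 probe set each. These included TRAIL with TNFRSF10A, TNFRSF10B and TNFRSF10D. TNFSF10 had a log2 ratio of 0.21, while its receptors TNFRSF10A and TNFRSF10B had -0.29 and -0.34, with the disagreement between TNFRSF10B probe sets given above. The 4-1BB pair also had opposite signs, with -0.25 for the ligand TNFSF9 and 0.42 for the receptor TNFRSF9. In the lymphotoxin-β pair the signs were alike on the chosen probe sets, with -0.19 for LTB and -0.20 for LTBR. They were also alike for TNFSF14 (-0.18) and its receptor TNFRSF14 (-0.20). The second probe sets of LTB and TNFSF14 gave 0.58 and 0.03, and the differences of LTBR and TNFRSF14 were within the probe-set SD. TNF (-0.29) and LTA (-0.57) were opposite in sign to their receptor TNFRSF1A (0.20) and alike with TNFRSF1B (-0.11). For CD30, the ligand TNFSF8 had 0.08 and the receptor TNFRSF8 had 0.53.

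Transcripts of the proteins that carry the receptors' signals were examined as a list of textbook members. The list of 36 adaptors, kinases, caspases, ubiquitin ligases and their inhibitors had 33 members with a probe set of their own, of which 32 were measured. None of these was 1.5-fold higher or lower on its chosen probe set (1.96% and 2.88% of measured genes). By any amount 18 were lower (53.6% of measured genes) and 14 higher (46.4%), and the median log2 ratio was -0.05. The median size of the difference, in either direction, was 0.14 on the log2 scale both in the list and over all measured genes. Of the list's 91 measured probe sets, 1 was at least 1.5-fold higher (2.87% of measured probe sets) and 3 were lower (3.23%). Those lower were secondary probe sets of CYLD (792 against 1280), XIAP (149 against 231) and RBCK1 (555 against 861). CYLD is a deubiquitinase that restrains NF-κB, XIAP a caspase inhibitor, and RBCK1 a subunit of the linear ubiquitin ligase. The chosen probe sets of CYLD, XIAP and RBCK1 gave log2 ratios of -0.29, -0.25 and -0.03. The remaining RBCK1 probe set gave -0.52, while others of CYLD and XIAP reached 0.18 and 0.29. The probe set that was at least 1.5-fold higher was a faint one of CFLAR (226 against 140). Its siRNAc signal was below the floor of 146 and was raised to it. The XIAP signal of 149 with siRNA-Tbet lay barely above that floor. CFLAR, the inhibitor of caspase-8 known as c-FLIP, read 6091 after silencing and 6975 in the control. Its direction depends on the probe set, as the brightest one, which can also cross-hybridise, gave a log2 ratio of 0.17. IKBKB, a kinase that releases NF-κB, had 9385 and 8845, and CASP8, the initiator caspase of death receptors, had 8611 and 8071. The ends of the list on the chosen probe sets, picked after their values were seen, were TRADD and TRAF1. TRADD, the death domain adaptor of TNFRSF1A, had 806 and 1062, a log2 ratio of -0.40. TRAF1, an NF-κB-induced adaptor, had 1417 and 1229, a log2 ratio of 0.21. The other measured probe set gave -0.16 for TRADD and 0.53 for TRAF1.

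Proteases and their partners that release ligands and receptors from the membrane were read next. Of the 9 listed, 7 were measured, 5 were lower and 2 higher, and the median log2 ratio was -0.02, as over all measured genes. None of the 6 above the floor on both arrays was 25% higher (7.68% of measured genes) or 20% lower (10.9%) on its chosen probe set. RHBDF1, an inactive rhomboid, reached the floor only with siRNA-Tbet (163 against 21.2), so its ratio is a lower bound. ADAM10 had 9987 and 10121, SPPL2A, which cleaves the membrane stub of TNF, had 8678 and 8251, and FURIN, which processes BAFF and APRIL, had 4754 and 4974. The other SPPL2A probe sets gave log2 ratios of 0.20 and 0.59, the latter at 1715 against 1138, or 1.51-fold higher. Of the list's 15 measured probe sets, only this 1 was at least 1.5-fold higher (2.87% of measured probe sets). None was at least 1.5-fold lower (3.23%). ADAM17, the TNF convertase, was picked after its values were seen and had 4160 and 4597, a log2 ratio of -0.14.

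**Figure D4:**
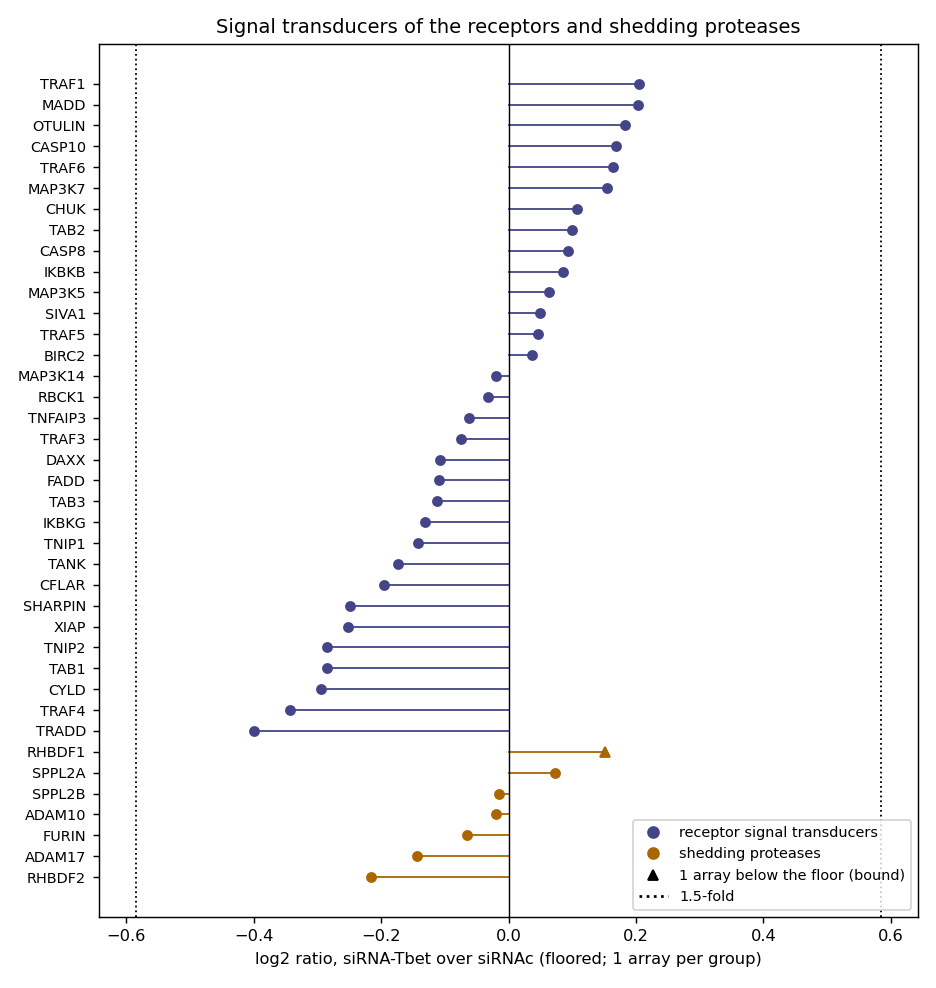
Log2 ratio of siRNA-Tbet over siRNAc for the measured signal transducers (blue) and shedding proteases (brown), 1 point per gene and 1 array per group, with dotted lines at 1.5-fold and a triangle where 1 array was below the floor. All points, 1 of them a bound, lie inside the dotted lines, between -0.40 for TRADD and 0.21 for TRAF1.

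The 11 members that were not measured had signals from 3.37 to 126 on their chosen probe sets. They were the ligands TNFSF11, TNFSF15 and TNFSF18, the receptors NGFR, TNFRSF4, TNFRSF10C, TNFRSF11B, TNFRSF13C, TNFRSF17 and TNFRSF19, and the transcript TNFRSF10B-AS1. No ratio is given for them. TNFRSF4 and TNFRSF10C have another probe set above the floor on at least 1 array, as given above. TNFRSF25 and TNFRSF18 were above the floor on both arrays although their ligands TNFSF15 and TNFSF18 were not.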

How the data were processed

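The authors deposited 1 linear signal intensity per probe set and array, made with MAS5 per the submitters' processing notes (version not given in the sources used here). The 2% trimmed mean was 1000.1 on both arrays, so no further normalization was applied. MAS5 subtracts mismatch signal, which makes low intensities noisy. MAS5 detection calls were not used here.

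Symbols came from the platform annotation and were updated by Entrez number through RefSeq GRCh38.p14. Of 54675, 41097 had 1 symbol (41043 matched RefSeq), 1801 had several and 11777 are unnamed here. Promoter sequences are from RefSeq, GRCh38.p14; 24 of 32 measured members matched by symbol.

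Log2 ratios are siRNA-Tbet over siRNAc. Signals below a common floor of 146, the higher of the 2 array medians over probe sets other than the 62 controls, were raised to it, so a fold with 1 array at the floor is a lower bound. A gene was read by its probe set of highest mean log2 signal, avoiding _x_at probe sets, which can cross-hybridise, where it had others. The spread is the SD of the difference in log2 ratio between the 2 brightest measured probe sets of a gene, over √2, in 10 signal bins.

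Every member is named, with signals if measured; of each pathway list, members past 1.5-fold and the 3 brightest. Members and lists were chosen with earlier results of these data known. The steps were tested only on simulated data, with planted changes larger than 1.5-fold in bright genes and the same noise at all signals. That test does not cover faint members or changes near the threshold. Alternatives covered scaling, floor, probe set and fold. Python 3.11.15, numpy 2.4.6, pandas 2.3.3 and statsmodels 0.14.6 were used.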

Additional observations from a re-analysis of the deposited data

How the results depend on the processing

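The count of members at least 1.5-fold higher, 0 in the main setting, was 1 after quantile normalization and 1 with a lowess trend removed (TNFRSF10A-DT in both, of 32 members; 2.22% and 2.24% of measured genes). A floor at the 25th percentile gave 2 (TNFRSF4 and TNFRSF10B-AS1), no floor or filter gave 4, and there were 2 with each gene's second brightest probe set (TNFRSF14-AS1 and TNFRSF21, of 14 members; 3.21% of genes with one). The count of those at least 1.5-fold lower, also 0, was 1 with a floor at the 25th percentile (CD27) and 3 with no floor or filter (CD27, NGFR and TNFRSF19). At a threshold of 25% higher or 20% lower, 3 were higher and 3 lower. With the low floors, the added genes lie below the main floor on at least 1 array, and 10.5% of all genes passed 1.5-fold in each direction at the 25th percentile. With no floor or filter, where all 43 members count, 14.6% of all genes passed it as higher and 14.8% as lower. The cause of the other changes was not tested.

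The median log2 ratio of the members, -0.08 in the main setting, changed sign to 0.16 over the 14 members with a second probe set (all genes: 0.00028). Under the other alternatives it ran from -0.11 with a floor at the 25th percentile to -0.01 with the median over probe sets. For 39 genes named in the text with a ratio, 326 of 334 values under 9 alternatives moved by less than the probe-set SD and 8 by more. Many of these values could not move. A gene with 1 probe set, above every floor on both arrays, is unchanged by another floor or choice of probe set. The second brightest probe set was not among the 9, so these counts do not measure how stable the ratios are. None of the 39 genes had passed 1.5-fold except TBX21, which kept its direction. Of those that moved by more, LTB, TNFRSF21, TNFRSF14-AS1 and CFLAR changed sign with the median over probe sets, to 0.19, 0.24, 0.47 and 0.11.

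No paired analysis was possible because each group holds 1 array, and leaving out an array leaves no comparison. The 11 members below the floor have no ratio.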
